A study of Homo sapiens with 12 samples.

Results

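The mRNAs of 30 subunits of the 26S proteasome were followed through 12 RNA libraries of HEK293, a widely used cell line derived from human embryonic kidney. They are the 7 PSMA genes, PSMB1, PSMB2 and PSMB4 to PSMB7, the 6 PSMC genes, and 11 PSMD genes, taken by Ensembl identifier from 57820 genes in the count tables (for example PSMC3, ENSG00000165916, PSMC5, ENSG00000087191, PSMC4, ENSG00000013275, PSMA2, ENSG00000106588, and PSMA6, ENSG00000100902). Stable Flp-In T-REx lines overexpressed FLAG/HA-tagged RPL12, a protein of the large ribosomal subunit, in 3 forms. These were the wild type (WT), S38A, in which alanine takes the place of a serine and blocks its phosphorylation, and S38D, in which an aspartate stands in for the phosphorylated residue. Each line gave 2 input libraries, from polyadenylated RNA of a pooled 80S sucrose gradient fraction, and 2 IP libraries, made from the remainder of the same fraction after pulling down the tagged protein with anti-FLAG antibody. The lines grew in hygromycin-selected monoclonal colonies, and the labels do not say that the cells' own RPL12 gene was removed, how many clones make up a line, or that replicates came from separate cultures. The spread behind every p-value is thus that of these libraries alone, and may be technical. All 3 lines carry the tag and no untagged IP is among the libraries, so recovery through tagged RPL12 and RNA bound without it cannot be told apart.

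The proteasome degrades proteins that carry ubiquitin. Its 20S core is a barrel of outer alpha rings, which gate the entry, and inner beta rings, which hold the proteolytic sites. The 19S particle caps the barrel with a base, whose ATPase ring unfolds substrates, and a lid, which removes ubiquitin. Subunits are assembled in fixed ratios, and their genes are known to be regulated together, in part by the transcription factor NFE2L1.

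Input libraries held 7434431 to 8723130 gene counts and IP libraries 3186164 to 7430881. ERCC spike-in RNA took 0.116% to 0.484% of counts in inputs and 1.44% to 5.43% in IP. Depth and spike-in share thus moved with every IP comparison here, and their part in the results was not tested. The lowest count of any member was 174 in an input, and 37 in an IP library (PSMA6, first WT IP).

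Summed over the 30 members, proteasome mRNA made up 0.271% ± 0.0156 of gene counts in inputs and 0.303% ± 0.0148 in IP (SD, n = 6 each, lines pooled). In WT the share was 0.278% and 0.287% in the inputs and 0.304% and 0.321% in IP. In S38A it was 0.272% and 0.242% in the inputs and 0.297% and 0.279% in IP. In S38D it was 0.267% and 0.281% in the inputs and 0.302% and 0.315% in IP. The share was higher in IP in each of the 6 fractions, by 1.09-fold to 1.15-fold, while the second S38A input was the lowest library and its IP overlapped the inputs. These shares are of total gene counts and carry no test.

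**Figure D1:**
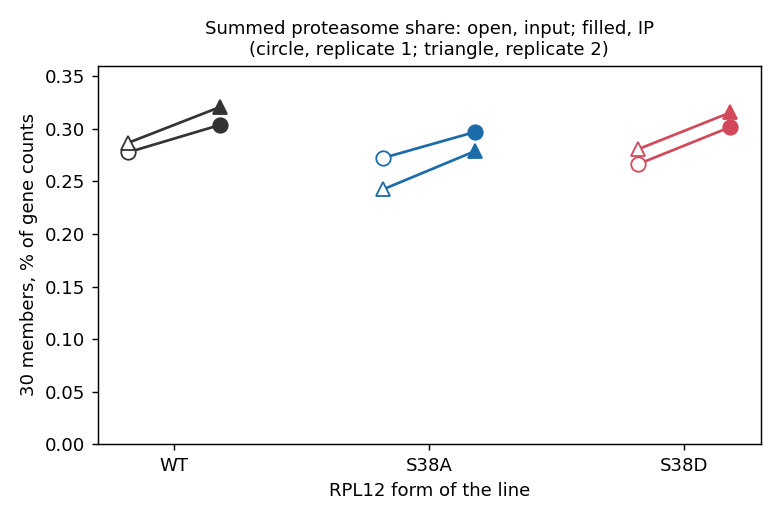
Share of gene counts taken by the 30 proteasome subunit mRNAs (y axis, percent) in input (open) and IP (filled) libraries of each line, joined by fraction. The share was higher in IP in all 6 fractions, and the second S38A input is the lowest point at 0.242%.

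The first comparison asked which subunit mRNAs were over- or under-represented in the IP relative to their 80S input, averaging the 3 lines. Of the 30 members, 15 rose and 2 fell at an adjusted p under 0.05 by the quasi-likelihood test of edgeR, where 15.9% of the 16920 genes tested were called higher and 15.9% lower. Among the 9437 genes within the members' range of mean log2 CPM, 20.7% were higher and 20.1% lower. The median log2 change of the members was 0.28 against -0.04 for all genes and 0.01 for genes in that range. Single changes ran from -0.69 to 0.80, with standard errors of 0.09 to 0.16. The members were therefore spread over a range several standard errors wide, although their proteins enter 1 complex.

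The mRNAs of the ATPase ring held the largest increases and also 1 of the lowest values. Of 6 members, 4 rose (PSMC1, PSMC3, PSMC4 and PSMC5) and 2 did not pass (PSMC2 and PSMC6), with a median of 0.67. PSMC3 stood at 68.2 to 94.1 CPM in the 6 inputs (median 84.2) and at 109 to 177 in the 6 IP libraries (median 150). It rose by 0.80 on the log2 scale, which is 1.74-fold (SE 0.09, edgeR adjusted p = 0.00019). PSMC5 stood at 85.1 to 114 CPM in inputs (median 103) and 131 to 206 in IP (median 187), an increase of 0.79 (SE 0.09, edgeR adjusted p = 0.00017). PSMC4 stood at 87.2 to 121 CPM in inputs (median 117) and 130 to 241 in IP (median 195), an increase of 0.75 (SE 0.10, edgeR adjusted p = 0.00038). For these 3 ATPase subunits no IP library overlapped an input, and within IP both S38A libraries were the lowest. Both S38A libraries were also lowest within IP for PSMA1, PSMB4, PSMC1, PSMC2, PSMD1, PSMD4, PSMD6 and PSMD8. The share of all genes with that order was not counted. For PSMC3, PSMC4 and PSMC5 the second S38A input was also the lowest input. None of their S38A versus WT differences in IP change passed. PSMC1 rose by 0.60 and PSMC2 had a change of 0.16 that did not pass (edgeR adjusted p = 0.22).

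PSMC6, an ATPase of the same ring, went the other way without passing. It stood at 117 to 137 CPM in inputs (median 124) and 93.3 to 123 in IP (median 107), with a change of -0.22 (SE 0.09, edgeR adjusted p = 0.094). The groups overlapped, but IP was below input in each of the 6 fractions. PSMC6 passed as lower with the fraction as a replicate block (edgeR adjusted p = 0.019), as it did with total counts (-0.43, adjusted p = 0.0058), among genes averaging 10 CPM or more (adjusted p 0.047) and without the second WT IP library (0.017).

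In the alpha ring 1 mRNA rose, 2 fell and 4 did not pass. PSMA2 and PSMA6, which encode neighbouring subunits of the ring, were the 2 members that fell. PSMA2 stood at 32.3 and 44.6 CPM in WT inputs, 41.1 and 51.9 in S38A and 33.4 and 45.8 in S38D, and at 19.3 and 24.9, 25.0 and 34.9, and 25.7 and 23.8 in the matching IP libraries. It fell by 0.69 (SE 0.14, edgeR adjusted p = 0.0033), and IP was lower in 6 of 6 fractions, although the second S38A IP library overlapped the lowest inputs. PSMA6 stood at 19 to 26.5 CPM in inputs (median 24.0) and 14.0 to 17.1 in IP (median 14.6). It fell by 0.65 (SE 0.13, edgeR adjusted p = 0.0028) with no overlap between IP and input.

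PSMA7 was the alpha subunit mRNA that rose, by 0.61 (SE 0.10, edgeR adjusted p = 0.0011), from 52.5 to 68.6 CPM in inputs to 80.0 to 110 in IP, with no overlap. PSMA1, PSMA3, PSMA4 and PSMA5 had changes of 0.24, 0.01, 0.21 and 0.17 that did not pass. PSMA1 and PSMA4 passed as higher with the fraction as a replicate block (edgeR adjusted p = 0.017 and 0.026).

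**Figure D2:**
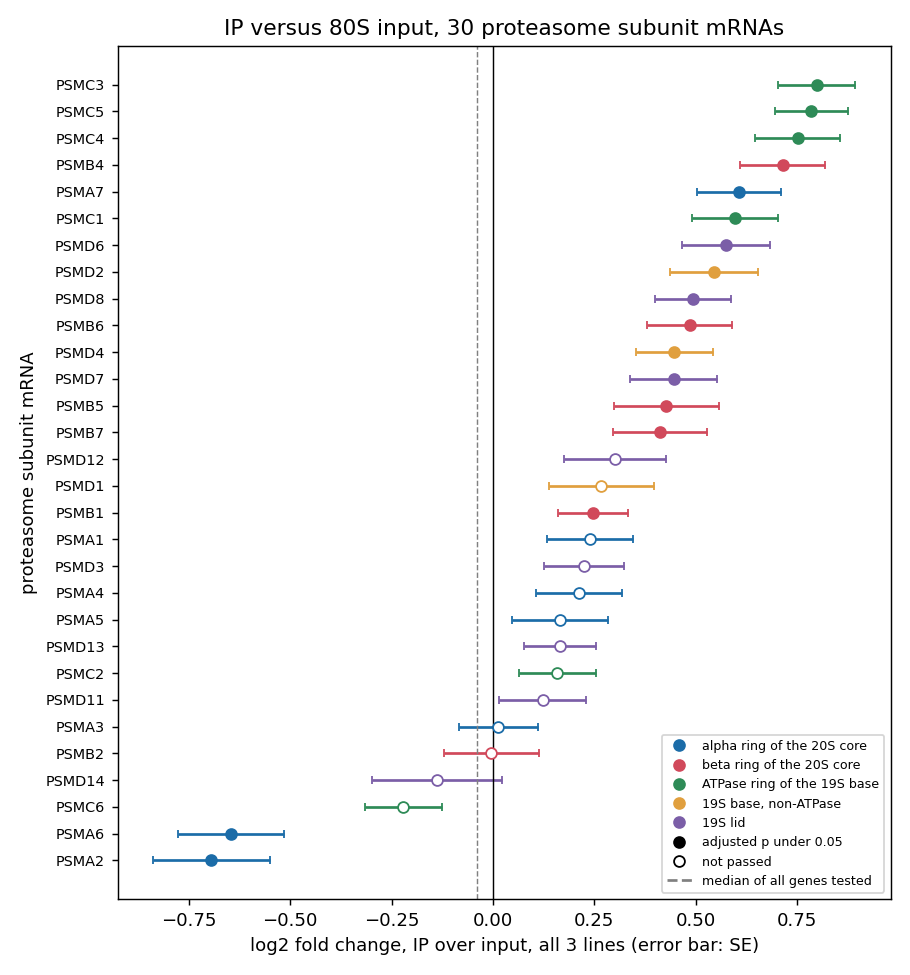
Log2 fold change of IP over input across the 3 lines (x axis, error bars SE) for each of the 30 subunit mRNAs (y axis), coloured by part of the complex and filled where the adjusted p was under 0.05. PSMC3, PSMC5 and PSMC4 lie at 0.75 to 0.80, PSMA6 and PSMA2 lie at -0.65 and -0.69, and the dashed line marks the median of all genes at -0.04.

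The promoters of the 2 members that rose most and the 2 that fell are shown because these genes, whose transcripts lay at opposite ends in IP, are usually described as regulated together. Each run holds the 250 bases before the first start that RefSeq lists (GRCh38.p14, a later build than that of the counts), 5′ to 3′ on the gene's strand. Capitals mark matches on either strand to CCAAT, the box bound by NF-Y, or to TGACNNNGC, the core of the element bound by NFE2L1. The runs lie at chr11:47426440-47426689 (minus strand) for PSMC3, chr17:63827181-63827430 (plus) for PSMC5, chr7:42932175-42932424 (minus) for PSMA2 and chr14:35292067-35292316 (plus) for PSMA6.
PSMC3: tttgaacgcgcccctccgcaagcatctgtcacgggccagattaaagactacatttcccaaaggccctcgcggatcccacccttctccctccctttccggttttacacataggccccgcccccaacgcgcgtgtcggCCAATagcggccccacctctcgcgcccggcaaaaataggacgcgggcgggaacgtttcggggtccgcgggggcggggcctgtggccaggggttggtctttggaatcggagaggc
PSMC5: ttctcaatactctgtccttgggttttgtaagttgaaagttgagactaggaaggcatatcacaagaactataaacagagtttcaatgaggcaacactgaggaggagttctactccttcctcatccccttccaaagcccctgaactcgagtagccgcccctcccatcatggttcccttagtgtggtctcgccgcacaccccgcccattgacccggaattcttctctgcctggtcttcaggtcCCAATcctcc
PSMA2: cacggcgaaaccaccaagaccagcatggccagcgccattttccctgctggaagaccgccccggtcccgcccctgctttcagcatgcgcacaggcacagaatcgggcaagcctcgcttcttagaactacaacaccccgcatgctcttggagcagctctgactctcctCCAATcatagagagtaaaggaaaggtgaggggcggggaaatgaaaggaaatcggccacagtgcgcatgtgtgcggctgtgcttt
PSMA6: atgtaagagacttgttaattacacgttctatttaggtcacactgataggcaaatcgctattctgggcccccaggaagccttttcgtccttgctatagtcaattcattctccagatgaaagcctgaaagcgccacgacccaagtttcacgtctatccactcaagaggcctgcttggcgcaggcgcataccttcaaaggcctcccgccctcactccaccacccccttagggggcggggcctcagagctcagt
PSMC3, PSMC5 and PSMA2 each held 1 CCAAT match in this window, and PSMA6 held none of either motif. Of 25 members with a promoter in the table, 13 held CCAAT before at least 1 listed start, against 37% of the 27305 genes in the table, and 4 held TGACNNNGC (PSMA4, PSMC5 at its other start, PSMD3 and PSMD12), against 13.2%. Genes with more listed starts have more windows in which to match, and the number of starts was not compared. A match is a description of the letters, and these libraries hold no measurement of promoter activity.

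In the beta ring 5 of 6 mRNAs rose, among them all 3 that encode catalytic subunits. PSMB5, which carries the chymotrypsin-like site, stood at 57.7 and 64.9 CPM in WT inputs, 60.4 and 47.8 in S38A and 58.7 and 61.4 in S38D, and at 57.3 and 99.9, 78.3 and 67.2, and 84.7 and 83.3 in the matching IP libraries. It rose by 0.43 (SE 0.13, edgeR adjusted p = 0.023), in 5 of 6 fractions, with the first WT IP library at the level of its input. PSMB6, which carries the caspase-like site, stood at 31 to 42.9 CPM in inputs (median 40.5) and 48.5 to 64.7 in IP (median 52.7), with no overlap. It rose by 0.49 (SE 0.11, edgeR adjusted p = 0.0041). PSMB7, which carries the trypsin-like site, stood at 49.7 to 74.0 CPM in inputs (median 64.1) and 69.0 to 101 in IP (median 81.6). It rose by 0.41 (SE 0.12, edgeR adjusted p = 0.017) in 6 of 6 fractions, and the groups overlapped.

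The other beta subunits have no active site. PSMB4 had the largest increase of the beta ring, 0.71 (SE 0.10, edgeR adjusted p = 0.00047), from 126 to 226 CPM in inputs to 213 to 361 in IP, the groups overlapping through the second S38A IP library. PSMB1 rose by 0.25 (SE 0.09, edgeR adjusted p = 0.044), and PSMB2 had a change of -0.00 (SE 0.12, adjusted p = 0.99). The call of PSMB1 was lost with total counts, with no filter and when any of 8 single libraries was left out (edgeR adjusted p from 0.047 to 0.15 over the 12 omissions). PSMB5 lost its call when any of 6 single libraries was left out (adjusted p from 0.002 to 0.081), and PSMB7 when any of 3 was (from 0.0063 to 0.068).

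**Figure D3:**
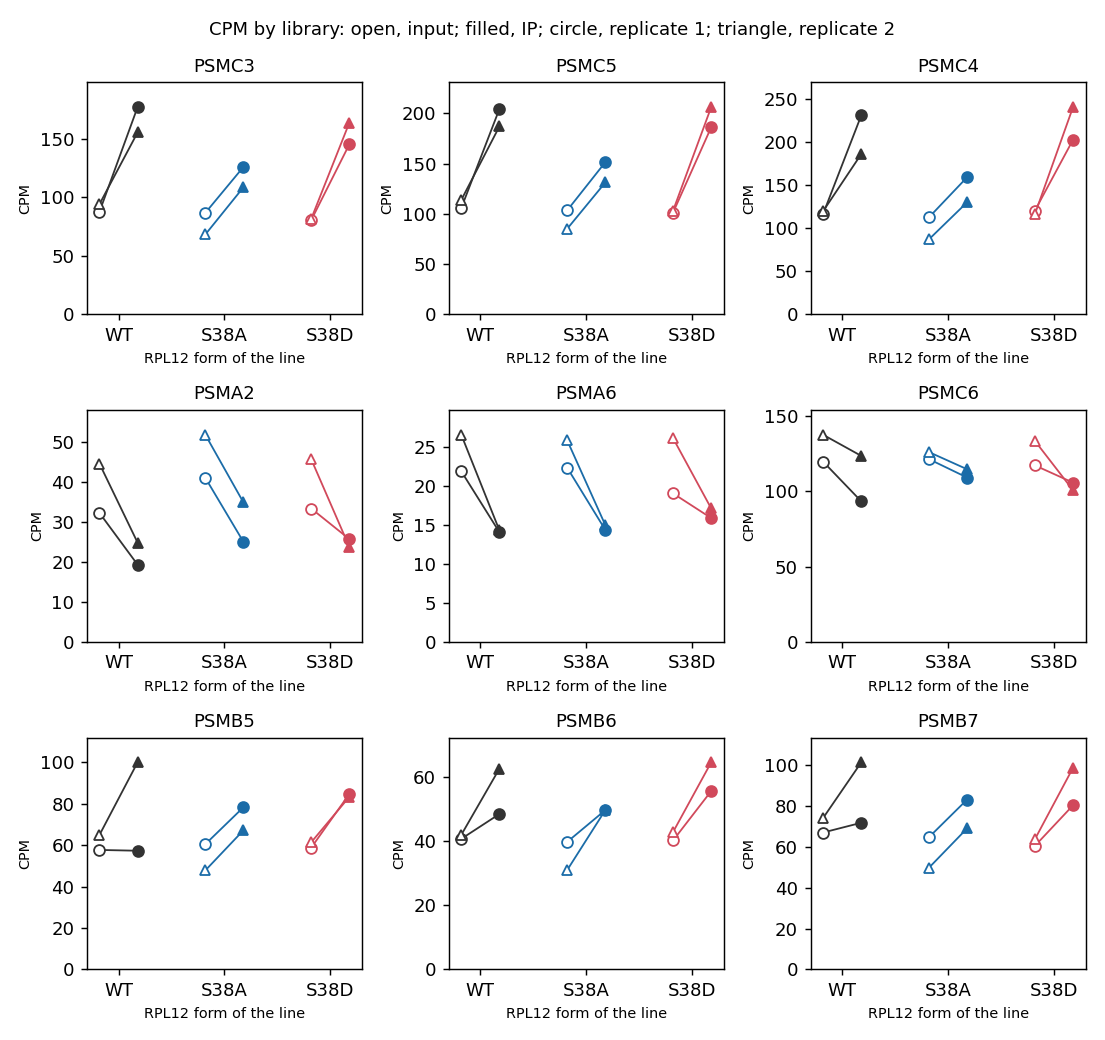
CPM (y axis, from 0) in input (open) and IP (filled) libraries of each line, joined by fraction, for the 3 members with the highest change, the 3 with the lowest and the 3 catalytic subunits. All 6 lines of PSMC3, PSMC5 and PSMC4 rise and all 6 of PSMA2, PSMA6 and PSMC6 fall, while PSMB5 is flat in the first WT fraction.

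In the non-ATPase part of the base, PSMD2, a large scaffold that binds ubiquitin shuttle proteins, rose by 0.54 (SE 0.11, edgeR adjusted p = 0.0026), and PSMD4, a ubiquitin receptor, by 0.45 (SE 0.09, adjusted p = 0.0036). Neither overlapped its inputs. PSMD1, a scaffold, had a change of 0.27 that did not pass (edgeR adjusted p = 0.14) and passed with the fraction as a replicate block (0.020).

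Of the 8 lid mRNAs, 3 rose and 5 did not pass. The lid is built on structural subunits and on the pair of PSMD14, the enzyme that cuts ubiquitin from substrates, and its inactive partner PSMD7. PSMD7 rose by 0.45 (SE 0.11, edgeR adjusted p = 0.0072) with no overlap, from 49.5 to 60.6 CPM in inputs to 60.9 to 94.4 in IP. PSMD14 stood at 28.6 to 49.3 CPM in inputs (median 35.3) and 23.1 to 42.4 in IP (median 32.4), a change of -0.14 that did not pass (SE 0.16, edgeR adjusted p = 0.55). The difference between the changes of these partners was not tested.

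Among the structural lid subunits, PSMD6 rose by 0.58 (SE 0.11, edgeR adjusted p = 0.0019) and PSMD8 by 0.49 (SE 0.09, adjusted p = 0.0019). PSMD6 ranged from 66.4 to 168 CPM in IP, with both S38A libraries lowest, against 63.4 to 82.8 in inputs. PSMD3, PSMD11, PSMD12 and PSMD13 had changes of 0.22, 0.12, 0.30 and 0.17 that did not pass. PSMD3 passed with the fraction as a replicate block (edgeR adjusted p = 0.015), and PSMD12 without the second WT IP library (0.41, adjusted p = 0.0057).

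Counted over fractions, 16 members were higher in IP in 6 of 6 fractions, against 20.3% of all genes, and 3 were lower in all 6 (PSMA2, PSMA6 and PSMC6), against 23.3%. For 8 members every IP library lay above every input (PSMA7, PSMB6, PSMC3, PSMC4, PSMC5, PSMD2, PSMD4 and PSMD7), against 6.15% of genes, and for 1, PSMA6, every IP library lay below, against 6.86%. Across the 30 members the change in IP had a Pearson correlation of 0.45 and a Spearman correlation of 0.25 with the mean log2 input CPM of the gene. Members are not independent, and both measures contain the input counts.

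DESeq2 called the same 17 members, 15 higher and 2 lower, against 18.1% and 15% of genes. With the fraction as a replicate block (edgeR) 19 were higher and 3 lower, all 17 among them, against 22.5% and 24% of genes. Leaving out the first WT fraction as well left WT without a replicate. The median member then lay at 0.22, beside -0.04 for all genes. Scaling moved the split of calls: 9 members were higher and 3 lower with total counts (edgeR), where 7.67% of all genes were higher and 31% lower. The median gene then lay at -0.25 in place of -0.04, and the median member at 0.07 in place of 0.28. PSMB1, PSMB5, PSMB6, PSMB7, PSMD4 and PSMD7 then lost their calls and PSMC6 gained one.

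**Figure D4:**
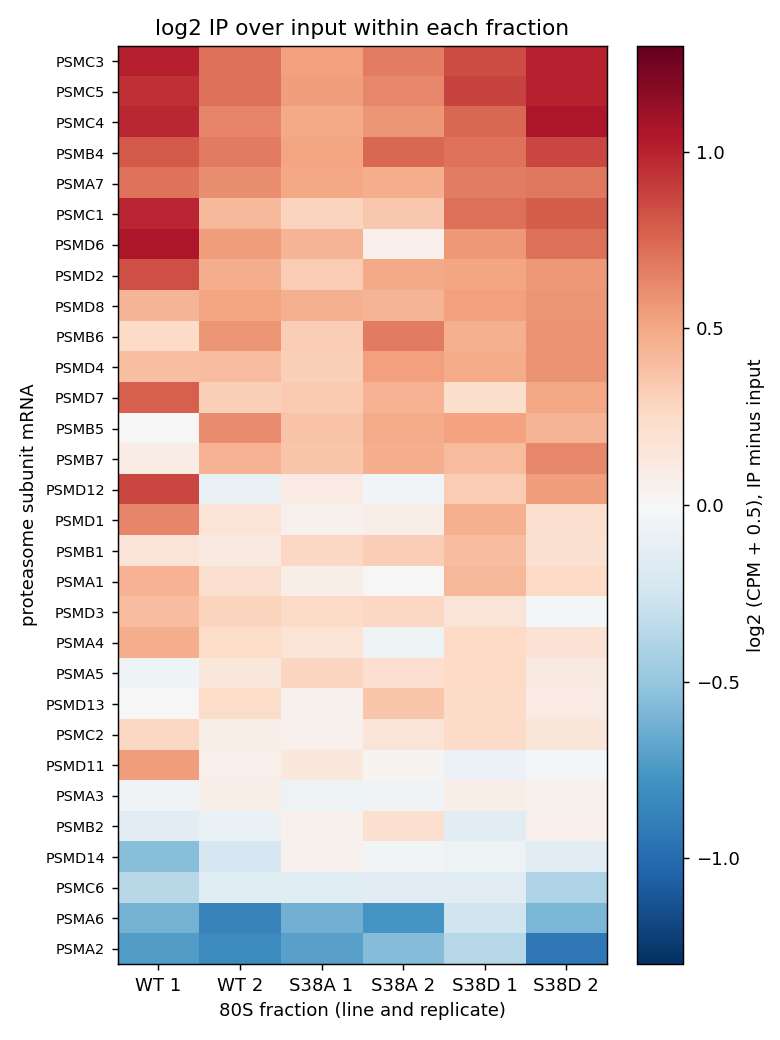
Log2 difference between IP and input (colour, CPM + 0.5) for the 30 subunit mRNAs (rows, ordered by the change over the 3 lines) in each of the 6 fractions (columns). The rows of PSMA2, PSMA6 and PSMC6 are negative in all 6 columns, and 16 rows are positive in all 6.

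The next comparison took each line separately, to ask whether the pattern was present with each RPL12 form. In WT 8 members were higher and 0 lower in IP (edgeR), where 5.77% of all genes were higher and 5.48% lower. These were PSMA7, PSMB4, PSMC1, PSMC3, PSMC4, PSMC5, PSMD2 and PSMD6. In WT PSMC3 had the highest change, 0.87 (SE 0.16, edgeR adjusted p = 0.011), with 87.6 and 94.1 CPM in inputs and 177 and 155 in IP. PSMA2 had the lowest, -0.78 (SE 0.26, adjusted p = 0.068), and did not pass. DESeq2 called 10 higher and 1 lower in WT, against 11.3% and 7.55% of genes, adding PSMD7, PSMD8 and, as lower, PSMA2 (DESeq2 adjusted p = 0.0498). PSMA2 also passed as lower with no filter (-0.84, edgeR adjusted p = 0.017, where 3.91% of genes were lower), and PSMA6 among genes averaging 10 CPM or more (-0.79, adjusted p = 0.036, where 9.57% were lower). With the fraction as a replicate block 14 were higher and 2 lower, all 8 among them, against 14% and 14.5% of genes, and PSMA2 and PSMA6 passed as lower. Without the first WT fraction only the second WT input and IP library remained, so WT had no replicate. The median change of the members in that block was then 0.27, beside -0.05 for all genes. With total counts 4 were higher and 2 lower, against 2.86% and 14.5% of genes. The 8 calls were lost without the first or the second WT input, and most were lost without the first WT IP library. Each omission left 1 library in its group, and the share of all genes called in these refits was not counted. Over single omissions the median WT change of the members lay between 0.31 and 0.42.

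In S38D 6 members were higher and 0 lower (edgeR), where 3.13% of all genes were higher and 1.73% lower. All 6 (PSMA7, PSMB4, PSMC1, PSMC3, PSMC4 and PSMC5) were also among the 8 called in WT. PSMC5 had the highest change, 0.94 (SE 0.16, edgeR adjusted p = 0.021), with 101 and 103 CPM in S38D inputs and 186 and 206 in IP. PSMA2 again had the lowest, -0.67 (SE 0.25, adjusted p = 0.14), and did not pass. The replicate block on the fraction gave 13 higher and 1, PSMA2, lower, against 10.7% and 9.28% of genes, and without the first WT fraction 19 and 3, against 19.2% and 17.7%. DESeq2 called 10 higher, against 10.2%, and total counts gave 3 higher and 1 lower, against 1.43% and 8.14%. The 6 calls were lost without any 1 of the 4 S38D libraries, and some were lost without the first or the second WT input. Each omission left 1 library in its group, and the share of all genes called in these refits was not counted. Over single omissions the median S38D change of the members lay between 0.34 and 0.50.

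In S38A 0 members passed (edgeR), as did 0% of all genes, with 12 members at unadjusted p under 0.05, where 15.2% of genes lay. DESeq2 called 3 (PSMB4, PSMC3 and PSMC5), all higher, against 2.08% of genes. The highest change was that of PSMB4, 0.62 (SE 0.18, edgeR adjusted p = 0.16), with 173 and 126 CPM in S38A inputs and 247 and 213 in IP. The lowest was that of PSMA6, -0.71 (SE 0.22, adjusted p = 0.18), with 22.3 and 25.8 CPM in inputs and 14.3 and 15.0 in IP. With the fraction as a replicate block 9 were higher and 2, PSMA2 and PSMA6, lower, against 5.92% and 6.37% of genes, and without the first WT fraction 17 and 2, against 18.5% and 16.4%.

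The order of the members was alike in the 3 lines, which share no library. Across the 30 members the changes in WT and S38D had a Pearson correlation of 0.94, those in WT and S38A of 0.87, and those in S38A and S38D of 0.89, where all genes gave 0.66, 0.62 and 0.62. Spearman correlations across the members were 0.93, 0.79 and 0.86 for these pairs. The sign was the same for 29, 27 and 26 members. These are descriptions across genes that share 1 fit, its scaling and the abundance of each transcript. Of the genes tested, 41.2% lay below every member in mean log2 CPM. No set of matched level was used for these correlations, so members and all genes differ in count depth here. Median changes were 0.37 in WT, 0.26 in S38A and 0.37 in S38D, beside -0.04, 0.00053 and -0.05 for all genes. With total counts they were 0.11, 0.14 and 0.10, beside -0.30, -0.12 and -0.31. The order of the lines by the member median alone thus depended on scaling. With both scalings the gap between the members and all genes was smallest in S38A, which was not tested. In each line the ATPase ring had the highest median of the 5 parts of the complex (0.77, 0.43 and 0.83) and the alpha ring the lowest (0.06, 0.04 and 0.19). In S38A the beta ring (0.42) and the non-ATPase base (0.41) were nearly level with the ATPase ring.

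Whether recovery differed between the RPL12 forms was asked of the difference between their IP changes. Of the 30 members 0 passed for S38A versus WT, as did 0% of genes, with 0 members at unadjusted p under 0.05 (2.32% of genes) and 0 called by DESeq2 or with the fraction as a replicate block. The difference was lowest for PSMD6, at -0.55 (SE 0.27, edgeR adjusted p = 1.00), whose IP levels were 168 and 121 CPM in WT and 91.8 and 66.4 in S38A over inputs of 80.8 and 82.8, and 67.6 and 63.4. It was highest for PSMD14, at 0.33 (SE 0.39), whose S38A libraries stood at 37.0 and 28.6 CPM in inputs and 38.6 and 27.8 in IP against 34.2 and 49.3, and 23.1 and 42.4, in WT. Standard errors of 0.21 to 0.39 leave differences of the size of the IP changes themselves undetectable for many members.

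For S38D versus WT 0 members passed as well, with 0 at unadjusted p under 0.05 (0.792% of genes) and 0 in DESeq2, and 0% of genes passed. The differences ran from -0.37 for PSMD11 (SE 0.26) to 0.32 for PSMA6 (SE 0.33). PSMD11 stood at 149 and 106 CPM in WT IP over inputs of 102 and 101, and at 89.6 and 106 in S38D IP over inputs of 94.8 and 107, the first WT IP library being the highest. PSMA6 stood at 14.0 and 14.3 CPM in WT IP over inputs of 21.8 and 26.5, and at 15.8 and 17.1 in S38D IP over inputs of 19 and 26.1. For S38D versus S38A 0 members passed, with 0 at unadjusted p under 0.05 (0.644% of genes) and 0 in DESeq2, and 0% of genes passed. The differences ran from -0.18 for PSMD3 (SE 0.24) to 0.44 for PSMC1 (SE 0.26). PSMD3 stood at 101 and 90.3 CPM in S38D IP over inputs of 90.3 and 92.2, and at 103 and 83.1 in S38A IP over inputs of 86.5 and 69.0. PSMC1 stood at 81.4 and 98.8 CPM in S38D IP over inputs of 49.4 and 57, and at 67.1 and 59.3 in S38A IP over inputs of 54.9 and 46.3. With the fraction as a block and the first WT fraction left out, PSMD12 passed, higher in S38D (0.41, edgeR adjusted p = 0.041). There 2.1% of genes were higher. That setting was added after seeing the data and leaves out no S38A or S38D library. The difference of PSMD12 was 0.41 in the main fit too, where it did not pass. It did not pass with every fraction in the block either.

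The inputs were compared to ask whether 80S-associated proteasome mRNA differed between lines before IP. Line and RPL12 form coincide, so they cannot be told apart. Against WT, S38A inputs had 0 members past the threshold (edgeR; 0 in DESeq2, where 3.63% of genes passed), with 2 at unadjusted p under 0.05 (15.3% of genes), and 0% of all genes passed. The member changes were nevertheless mostly negative, 26 of 30 against 52% of genes, with a median of -0.19 against -0.02 for all genes. PSMB4 was lowest, at 202 and 226 CPM in WT inputs and 173 and 126 in S38A inputs, a change of -0.49 (SE 0.16, edgeR adjusted p = 0.22). It passed with no filter on low counts (-0.49, edgeR adjusted p = 0.043, where 1.11% of genes were lower) and without the first S38A input (-0.74, adjusted p = 0.044). PSMA2 was highest, at 0.30 (SE 0.22, adjusted p = 0.55).

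The second S38A input was the lowest of the 6 inputs for 22 of 30 members, against 27.9% of genes. Without it the median of the members in S38A versus WT was -0.06, and without the first S38A input -0.33. For 7 members (PSMB4, PSMB6, PSMC4, PSMD3, PSMD6, PSMD7 and PSMD8) both S38A inputs lay below the other 4 inputs, against 11.9% of genes. With spike-in scaling the median was -0.61, beside -0.44 for all genes. The WT inputs held the lowest and the highest spike-in share of the 6 inputs (0.116% and 0.484%). The S38A inputs lay between them (0.342% and 0.211%). The WT replicates thus disagreed on this scale, and spike-in scaling without either of them was not run.

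S38D inputs had 0 members past the threshold against WT (edgeR; 0 in DESeq2), with 0 at unadjusted p under 0.05 (3.32% of genes), where 0.00598% of genes passed. Changes ran from -0.28 for PSMA4 (SE 0.15) to 0.20 for PSMA7 (SE 0.16), with a median of -0.06. PSMA4 stood at 134 and 144 CPM in WT inputs and 128 and 97.4 in S38D inputs, and PSMA7 at 67.1 and 52.5 in WT and 67.6 and 68.2 in S38D. Over the omission of single libraries the median lay between -0.13 and 0.0091 (highest without the second WT input). With spike-in scaling it was -0.87, beside -0.83 for all genes. That scaling rests on the same disagreeing WT inputs, with the S38D inputs between them in spike-in share (0.350% and 0.330%). Against S38A inputs 0 passed too (edgeR; 0 in DESeq2), with 0 at unadjusted p under 0.05 (3.77% of genes) and 0.00598% of genes called. The changes ran from -0.23 for PSMA2 (SE 0.22) to 0.32 for PSMB4 (SE 0.16, S38D inputs at 181 and 193 CPM), with a median of 0.11. That median was 0.0037 without the second S38A input and 0.24 without the first, and -0.27 with spike-in scaling, beside -0.40 for all genes. The S38A inputs enter both this comparison and the one with WT.

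**Figure D5:**
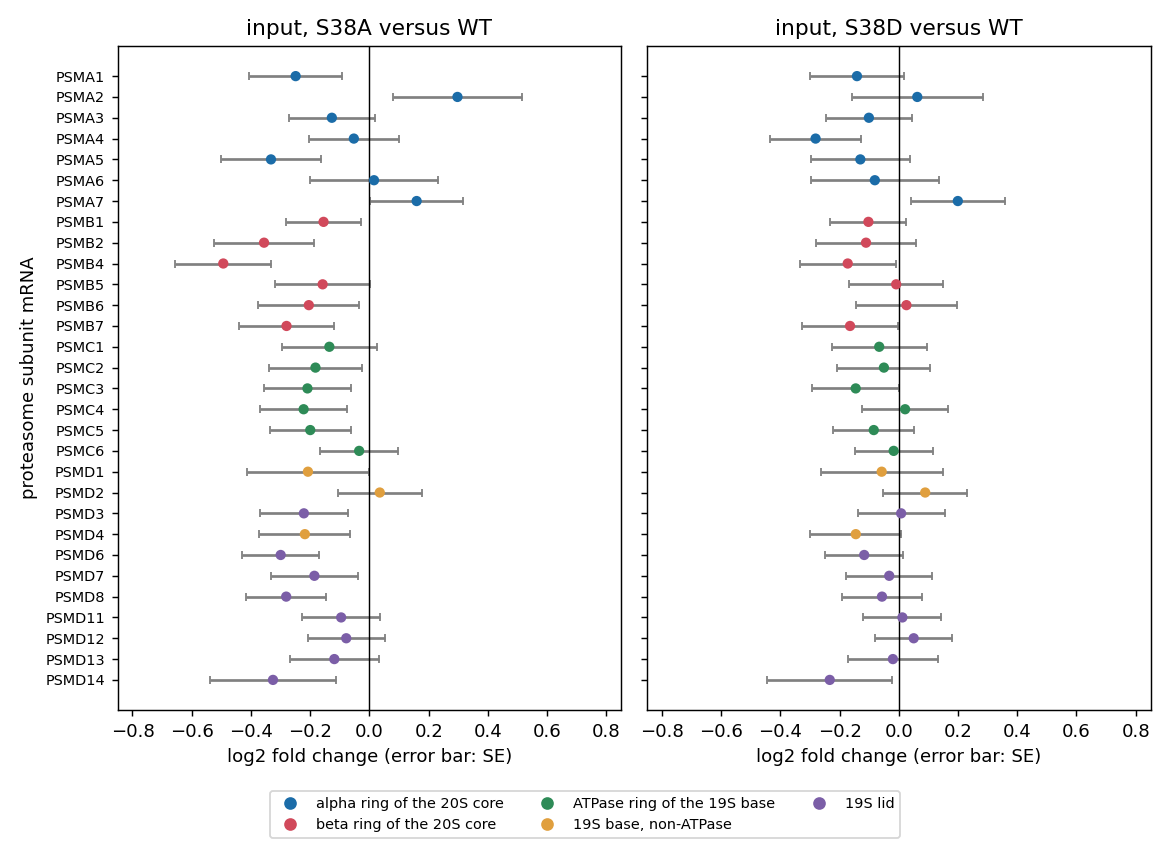
Log2 fold change between input libraries (x axis, error bars SE) of S38A versus WT (left) and S38D versus WT (right) for the 30 subunit mRNAs (y axis), coloured by part of the complex. Of the S38A values 26 lie below 0, PSMB4 lowest at -0.49, and no member passed the test in either panel.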

How the data were processed

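The authors deposited raw read counts, 1 table for each library, covering 57820 Ensembl genes and 92 ERCC spike-in sequences. The submitters' processing notes name STAR 2.4.2a, bcl2fastq 2.16.0.10, DESeq2 and the hg19 build. Counter and strand setting: not given in the sources used here. Genes that overlap others or have near-identical copies are uncertain.

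The 30 members were read by identifier, with symbols given by the rule that lists them. Members and lists were chosen with earlier results of these data known. A RefSeq table of 59792 genes held 0 Ensembl identifiers, so 24 further proteasome genes and 10 cell markers listed by symbol matched 0 identifiers and were not analysed here, nor was the tagged gene. No transcript lengths were used, and levels are compared within a gene only.

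Counts were fitted in R 4.3.3 with edgeR 4.0.16 (filterByExpr with a minimum count of 10, TMM scaling, glmQLFit and glmQLFTest), with Benjamini-Hochberg adjustment over all genes tested and calls at adjusted p under 0.05. IP comparisons came from 1 fit of all 12 libraries (16920 genes) and input comparisons from the 6 inputs (16728 genes). All 30 members passed the filter. The SE is the size of the log2 fold change over the root of its F statistic. CPM are TMM-scaled over the 12 libraries, and differences within a fraction are of log2(CPM + 0.5). The fits were tested on simulated data.

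The labels tie each IP to the input of its own fraction, and deviations of such pairs from their group means correlated (WT 0.28, S38A 0.64, S38D 0.54, across genes), so a replicate block on the fraction was an alternative. Others were RLE factors, total counts, DESeq2 1.42.0, no filter, mean CPM of at least 10, scaling inputs to spike-ins, and leaving out every library in turn. Shares of genes are over those given an adjusted p in each setting. For DESeq2 these were 16263 genes over the 3 lines, 13967 in WT, 11343 in S38A, 11671 in S38D and 11539 in S38A versus WT inputs. DESeq2 and edgeR shares thus have different denominators. The block without the first WT fraction was added after seeing the data. It keeps only the second WT input and IP library, so its spread comes from the S38A and S38D libraries. Replicates differed beyond sampling noise (chi-square per degree of freedom 5.74 to 17.4).

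Named with library values are PSMB5, PSMB6 and PSMB7, the 3 members with the highest and the 3 with the lowest change in IP over the 3 lines, and the extremes of each other comparison.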

Additional observations from a re-analysis of the deposited data

Results flagged for a closer look

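In the first WT fraction, the log2 difference between IP and input of PSMD11, a structural subunit of the 19S lid, was 0.54, and in the other 5 fractions it lay between -0.08 and 0.14. The gap to the nearest fraction was 0.64 of the whole range, above the 95% critical value of Dixon for 6 values. This was the single outlying value among 31 sets of 6 differences (30 members and their summed share). Chance gives about 1 in 20 for each set, so 1 among 31 sets is no more often than that. The IP library of this fraction held the fewest gene counts (3186164) and the highest spike-in share (5.43%), whose part was not tested.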

How the results depend on the processing

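When single libraries were left out, the median change of the members over the 3 lines lay between 0.23 and 0.33. Some members lost or gained a call in these refits. With the fraction as a replicate block (edgeR) the calls were 22 over the 3 lines, 16 in WT, 11 in S38A and 14 in S38D. There 22.5% of genes were higher and 24% lower over the 3 lines, and 14% and 14.5% in WT. In S38A 5.92% of genes were higher and 6.37% lower, and in S38D 10.7% and 9.28%. In that block without the first WT fraction, an alternative chosen after seeing the data, they were 24, 15, 19 and 22, with 1 in S38D versus S38A. DESeq2 called 11 in WT, where 11.3% of genes were higher and 7.55% lower. It called 3 in S38A (2.08% of genes higher) and 10 in S38D (10.2% of genes higher). With no filter edgeR called 1 in S38A versus WT inputs, where 1.11% of genes were lower. Leaving out single libraries gave 0 to 10 calls in WT, 0 to 9 in S38D and 0 to 1 in S38A versus WT inputs. The replicate number as a block on the inputs (same-numbered inputs correlated at -0.066 for WT and S38A, 0.22 for WT and S38D and 0.11 for S38A and S38D) changed no member's call.

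Signs turned for changes that had not passed. With total counts the change over the 3 lines was -0.20 for PSMA3, -0.0029 for PSMA4, -0.048 for PSMA5, -0.055 for PSMC2, -0.10 for PSMD11 and -0.049 for PSMD13. PSMA3 was at -0.022 with no filter and -0.010 with mean CPM of at least 10, and from -0.053 to 0.061 over single omissions. PSMB2 was at 0.014 with RLE factors and with DESeq2, 0.0024 in the block when the first WT fraction was omitted, and from -0.079 to 0.061 over single omissions. The S38A versus WT difference of PSMD14 lay between -0.064 and 0.87. With spike-in scaling PSMA7 was at -0.75 in S38D versus WT inputs and PSMB4 at -0.031 in S38D versus S38A inputs. Beyond what these constructions change, the cause was not tested. Fewer counts in IP (down to 37 for PSMA6) and 2 libraries per group limit the precision.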
